A study of Arabidopsis thaliana with 24 samples.

Results

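The 8 genes described here encode proteins that copy DNA at the replication fork or supply its nucleotides: PCNA1, PCNA2, LIG1, ICU2, POLD1, RNR1, RNR2A and TSO2. They were chosen by name and locus identifier (AT1G07370, AT2G29570, AT1G08130, AT5G67100, AT5G63960, AT2G21790, AT3G23580 and AT3G27060), as 8 of the 33612 features counted, and all 8 passed the filter on low counts. Poly(A) RNA of whole Arabidopsis thaliana seedlings was sequenced in 24 libraries, 3 replicates of each of 8 genotypes, in a study of the DREAM complex, which holds E2F proteins and represses cell cycle genes, and of WDR5a. All seedlings were 9 days old and had grown in continuous white light. The mutant genotypes were hid1, bte1, bte1 hid1, hid1 phil1, btl1, bte1 btl1 and e2f, and the wild type (WT) was Col-0. HID1 is a noncoding RNA gene, and phil1 is labelled as a mutation in the proximal promoter of HIL1, carried together with hid1. The e2f plants are labelled as mutants of E2FA, E2FB and E2FC. The loci of bte1 and btl1 are not given in the sources used here.

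At a replication fork, DNA polymerase alpha lays down primers, polymerase delta extends them while held on the template by the PCNA clamp, and DNA ligase 1 seals the fragments of the lagging strand. Ribonucleotide reductase, built of large and small subunits, makes the deoxyribonucleotides that the polymerases use. Plants express most of these genes around S phase, and E2F binding sites have been described in many promoters of this kind.

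The promoters are shown because E2F genes are among those mutated. Promoter sequences came from the RefSeq genome TAIR10.1, as the 250 bases before each annotated gene start, 5′ to 3′ on the gene's strand. The E2F core was searched as TTCCCGC or TTGGCGC or TTCGCGC or TTGCCGC on both strands, a choice made after the promoters had been seen. It was present in the windows of PCNA2, ICU2 and POLD1, which is 3 of 8, against 13 of 42 promoters of other fork and nucleotide genes and 2.9% of 27443 promoters of the same length. Capitals mark the core.
The windows of ICU2 (chr5:26776703-26776952, plus strand), POLD1 (chr5:25599264-25599513, plus strand), LIG1 (chr1:2547947-2548196, minus strand) and TSO2 (chr3:9981621-9981870, minus strand) read as follows.
ICU2: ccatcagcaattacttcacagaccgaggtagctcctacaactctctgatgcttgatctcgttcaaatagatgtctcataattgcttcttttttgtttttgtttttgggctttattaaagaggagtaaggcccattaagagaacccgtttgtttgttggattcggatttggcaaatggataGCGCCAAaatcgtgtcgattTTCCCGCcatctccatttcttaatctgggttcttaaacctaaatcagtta
POLD1: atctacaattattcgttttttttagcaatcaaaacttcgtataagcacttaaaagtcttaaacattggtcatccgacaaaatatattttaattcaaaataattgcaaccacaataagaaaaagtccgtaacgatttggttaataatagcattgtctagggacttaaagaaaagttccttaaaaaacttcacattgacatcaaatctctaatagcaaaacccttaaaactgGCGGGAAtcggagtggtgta
LIG1: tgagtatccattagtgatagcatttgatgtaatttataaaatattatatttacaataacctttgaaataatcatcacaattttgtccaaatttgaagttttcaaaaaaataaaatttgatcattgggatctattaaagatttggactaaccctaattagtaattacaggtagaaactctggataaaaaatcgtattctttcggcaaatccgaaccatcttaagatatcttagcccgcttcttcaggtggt
TSO2: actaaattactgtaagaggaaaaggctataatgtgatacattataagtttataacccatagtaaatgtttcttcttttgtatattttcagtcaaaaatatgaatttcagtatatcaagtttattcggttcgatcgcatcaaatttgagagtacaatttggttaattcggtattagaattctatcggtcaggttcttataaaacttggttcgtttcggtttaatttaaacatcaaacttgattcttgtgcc
ICU2, the catalytic subunit gene of polymerase alpha, held 2 cores, and POLD1, which encodes the catalytic subunit of polymerase delta, held 1. Neither LIG1 nor TSO2 held one in its window.

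In the 250 bases before the start codon, the core was present in PCNA1, PCNA2, ICU2 and POLD1, which is 4 of 8, against 22 of 42 other fork and nucleotide genes and 3.43% of all genes. This window, like the core, was chosen after the promoters had been seen. The sites of the PCNA pair are shown because the paired clamp genes differ in where the core lies. PCNA1 has it inside the annotated gene (chr1:2263043-2263071, plus strand), and PCNA2 has it both just before the gene start (chr2:12651744-12651772, minus strand) and inside the gene (chr2:12651681-12651709, minus strand).
PCNA1, inside: ctagcgcattgGCGGGAAccaaatagctt
PCNA2, before: gtcacacacagGCGGGAAcaaaaataccc
PCNA2, inside: tataatatcacTTCCCGCtaacaattgca
No core was found in either window of LIG1, RNR1, RNR2A or TSO2. Of the other motifs searched on both strands in the 250 bases before the gene start, site II (TGGGCC or TGGGCT) was present in PCNA2, ICU2 and RNR1 against 19.2% of promoters, the telo box (AAACCCTA) in PCNA1 and RNR1 against 4.49%, and the CHR element (TTTGAA) in LIG1, ICU2, POLD1 and RNR1 against 38.8%. The core preceded by a further T, the form searched first, was present in 1 of 8 (ICU2). It was present in 12 of 42 promoters of other fork and nucleotide genes and in 1.41% of all promoters. A match or its absence describes these letters only.

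The libraries held 14309396 to 23912716 counted reads. HID1 had 0 reads in the hid1 and bte1 hid1 libraries and 9 in those of hid1 phil1, all in the same library. The hid1 phil1 libraries ran from 0 to 0.421 CPM, against a mean of 8.61 CPM in WT (CPM are reads scaled by the library's TMM-adjusted total). In the libraries labelled e2f, the gene-level counts do not check the label: E2FA averaged 31.3 CPM against 8.83 CPM in WT, E2FC 47.5 CPM against 11.5 CPM, and E2FB 5.53 CPM against 6.85 CPM. In the FPKM table, the 9 libraries of btl1, bte1 btl1 and e2f lack the assembled loci that the 15 others carry, so comparisons of these 3 genotypes with WT cross 2 sets of libraries, and set and genotype cannot be told apart there. The sets are inferred from that table and no label names them. Depth divides the libraries otherwise, at 21270487 to 21885875 counted reads in e2f, 14309396 to 15424866 in btl1 and bte1 btl1, and 19309154 to 23912716 in the 15 others. All 5 green tissue markers and all 6 root markers were detected in every genotype. Of the 5 shoot meristem markers, WUS and CLV3 were at or near 0. The 5 together summed to 47.0 CPM in WT, 53.2 CPM in hid1 and 37.1 CPM in e2f, and 3 of them passed the filter. Of these 3, 1 was called lower and 0 higher against WT in each of bte1, btl1, bte1 btl1 and e2f. Their part in the results was not tested. The 6 seed markers varied most between libraries, summing to 5.90 to 139 CPM in e2f, 0.693 to 80.4 in hid1, 0.532 to 88.5 in btl1, 1.08 to 66.3 in bte1 btl1 and 0.0840 to 0.744 in WT, with 3 of 6 called higher in e2f against WT and 0 of 6 in e2f against btl1, and their part in the results was not tested. The 6 markers of dividing cells summed to 227 ± 21.6 CPM in e2f, 187 ± 4.03 in hid1, 170 ± 2.04 in bte1 btl1, 138 ± 0.477 in hid1 phil1, 136 ± 11.6 in bte1 hid1, 129.6 ± 11.8 in btl1, 129.4 ± 12.7 in bte1 and 129.9 ± 9.72 in WT (SD, n = 3 each). In these bulk samples, fewer cells of a type and less RNA per cell cannot be told apart.

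In WT seedlings the small reductase subunit TSO2 had the highest level per length of the 8 genes, at 49.3 ± 9.06 FPKM (SD, n = 3). The large subunit RNR1 followed at 25.5 ± 0.982 FPKM. The clamp genes PCNA2 and PCNA1, the small reductase subunit RNR2A and the ligase LIG1 stood close together at 13.2, 12.8, 12.6 and 12.1 FPKM. The polymerase subunits were lowest, with POLD1 at 5.75 ± 0.523 FPKM and ICU2 at 5.28 ± 0.851 FPKM. With reads divided by the reference exon length instead, the order of the first 3 and of the last 2 was kept.

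**Figure D1:**
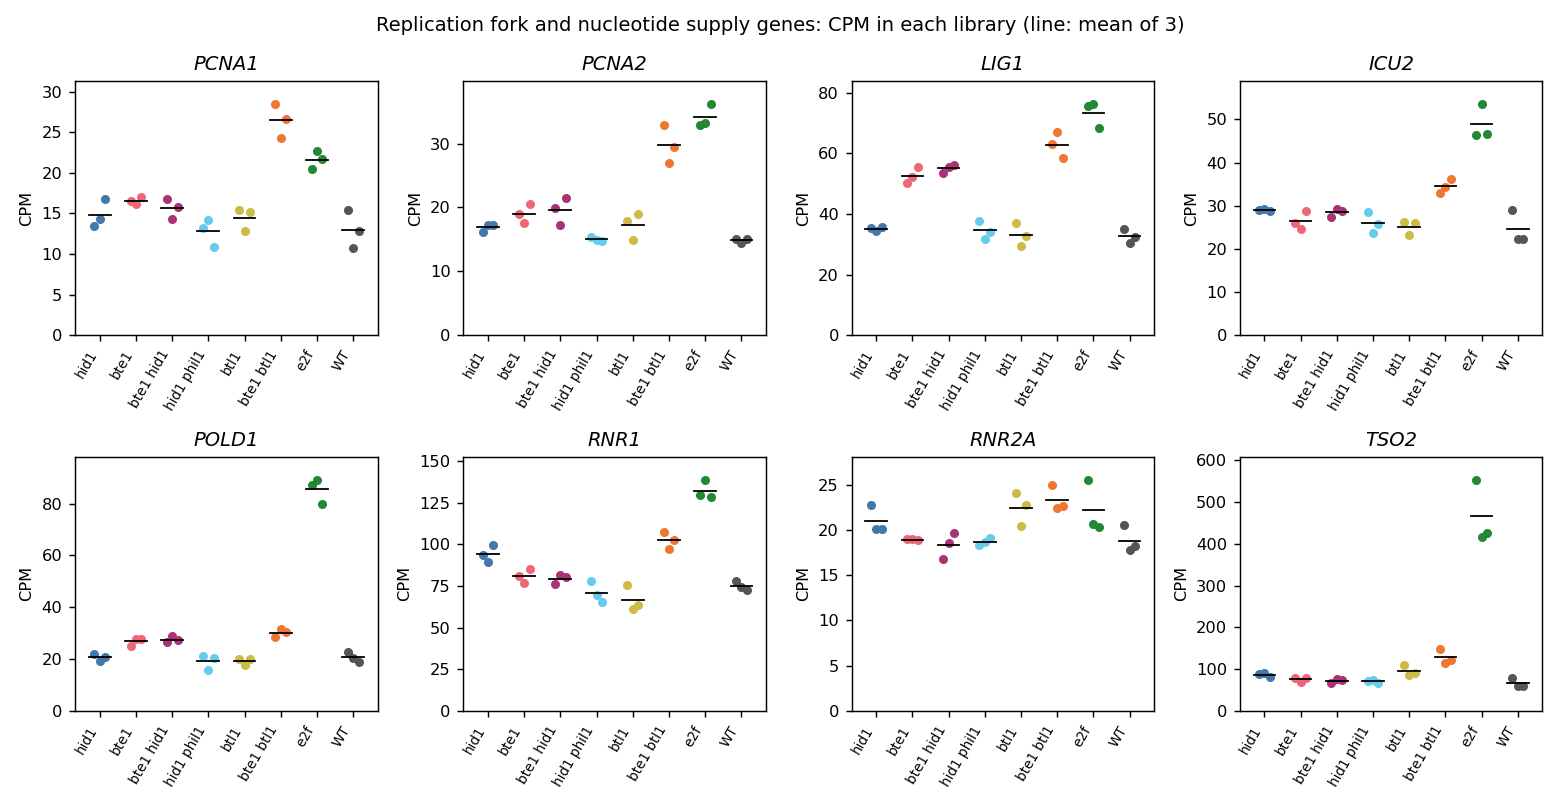
CPM of each of the 8 genes (vertical axes, from 0) in every library of the 8 genotypes, points for libraries and lines for the mean of 3. The e2f libraries stand highest for PCNA2, LIG1, ICU2, POLD1, RNR1 and TSO2, by most for POLD1 and TSO2. The bte1 btl1 libraries are above those of btl1 for all genes but RNR2A, and LIG1 is high in the 4 genotypes that carry bte1 or e2f.

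The largest log2 fold changes among the 8 genes were in the libraries labelled e2f. Of the 8 genes, 7 were higher in e2f than in btl1, both in the set of 9 libraries though of different depth, where 26.4% of all tested genes were called higher at an adjusted p under 0.05 (51.2% in either direction). For 7 of the 8, every e2f library lay on one side of every btl1 library, as it did for 55.1% of all tested genes. The median log2 fold change of the 8 genes was 0.98, against -0.01 over all genes tested. Against bte1 btl1, 5 of the 8 were called higher and 1 lower, where 26.1% and 25% of tested genes were (51.1% in either direction). Against WT all 8 were called higher, where 26.4% of tested genes were, with 52.2% called in either direction. The 3 comparisons of e2f share the e2f libraries, and their values are given side by side.

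TSO2 moved most. It had 554, 417 and 427 CPM in the 3 e2f libraries, 148, 115 and 122 CPM in bte1 btl1, 110.0, 85.4 and 91.1 CPM in btl1, and 79.3, 59.3 and 58.5 CPM in WT. Every e2f library lay above every other library. The log2 fold change was 2.29 ± 0.13 (SE) in e2f against btl1, with an adjusted p of 1.62e-12 in edgeR's quasi-likelihood test with Benjamini-Hochberg adjustment. It was 2.83 ± 0.13 against WT and 1.86 ± 0.13 against bte1 btl1. TSO2 shares 3 exon bases with AT3G27050 on the same strand, and that neighbour changed by -1.17 in e2f against btl1.

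POLD1 moved second most. It had 87.4, 89.2 and 79.9 CPM in e2f, 28.6, 31.6 and 30.3 CPM in bte1 btl1, 20.13, 17.7 and 20.08 CPM in btl1, and 22.6, 20.3 and 18.9 CPM in WT. Its e2f libraries stood apart from all others without overlap. In e2f against btl1 its log2 fold change was 2.15 ± 0.10 (SE, adjusted p 1.26e-14 in the same edgeR test), and in e2f against bte1 btl1 it was 1.50 ± 0.09. POLD1 shares 71 exon bases with the antisense gene AT5G63970, which changed by 0.34 in e2f against btl1; the strand used in counting is not given in the sources used here, so reads of that stretch cannot be told apart.

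ICU2, polymerase alpha's catalytic subunit, had 46.4, 53.6 and 46.7 CPM in e2f, 32.9, 34.4 and 36.2 CPM in bte1 btl1, 26.2, 23.3 and 25.9 CPM in btl1, and 29.0, 22.4 and 22.2 CPM in WT. It was higher in e2f, by a log2 fold change of 0.96 against btl1 and 0.50 against bte1 btl1 (adjusted p 1.69e-08 and 0.000106 in edgeR's test). ICU2 shares 870 of its 5783 exon bases with the antisense gene AT5G67110, which averaged 6.25 CPM in e2f and 4.48 CPM in WT.

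RNR1, the large subunit of the reductase, had 129.6, 139 and 129 CPM in e2f, 108, 97.4 and 103 CPM in bte1 btl1, 75.7, 61.2 and 63.8 CPM in btl1, and 78.0, 74.5 and 72.5 CPM in WT. It rose by 0.98 ± 0.08 on the log2 scale in e2f against btl1 (SE, adjusted p 3.14e-10 in edgeR's test). Its e2f libraries lay above all others, by less than those of TSO2 did.

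LIG1 had 75.8, 76.3 and 68.3 CPM in e2f, 63.0, 67.0 and 58.4 CPM in bte1 btl1, 37.1, 29.3 and 32.8 CPM in btl1, and 35.2, 30.5 and 32.3 CPM in WT. The libraries of e2f and of bte1 btl1 both lay above those of btl1 and WT, and the log2 fold change of e2f against bte1 btl1 was 0.23 ± 0.08 (SE, adjusted p 0.0213 in edgeR's test); in 3 of the fits without 1 library that call was lost (adjusted p 0.0505 without e2f replicate 1, 0.0634 without e2f replicate 2 and 0.114 without bte1 btl1 replicate 3), as it was in the fit of those genotypes alone (0.091). Against btl1 the log2 fold change in e2f was 1.15 ± 0.08.

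The clamp genes PCNA1 and PCNA2 were both higher in e2f and in bte1 btl1 than in WT. PCNA2 had 33.0, 33.2 and 36.2 CPM in e2f, 32.9, 27.0 and 29.5 CPM in bte1 btl1, 17.9, 14.96 and 19.0 CPM in btl1, and 15.1, 14.4 and 15.1 CPM in WT. PCNA1 had 20.4, 22.8 and 21.7 CPM in e2f, 28.5, 24.3 and 26.7 CPM in bte1 btl1, 15.4, 12.8 and 15.2 CPM in btl1, and 15.5, 10.7 and 12.9 CPM in WT. PCNA1 was lower in e2f than in bte1 btl1, with a log2 fold change of -0.29 ± 0.12 (SE, adjusted p 0.0399 in edgeR's test), a call that DESeq2 (adjusted p 0.0525), the fit with no filter (0.0519) and 4 fits without 1 library did not keep. PCNA2 had a log2 fold change of 0.20 ± 0.09 in the same comparison, with an adjusted p of 0.0798 (0.0488 with the replicate block and 0.0319 without bte1 btl1 replicate 1). PCNA2 shares 279 of its 1183 exon bases with the antisense gene AT2G29560, which changed by -0.05 in e2f against btl1. The longest run shared by PCNA1 and PCNA2 transcripts was 41 bases, and 1.0% of the 31-base words of PCNA1 occur in PCNA2.

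RNR2A, a second small subunit, had 25.6, 20.7 and 20.3 CPM in e2f, 25.0, 22.4 and 22.7 CPM in bte1 btl1, 24.1, 20.4 and 22.7 CPM in btl1, and 20.6, 17.8 and 18.2 CPM in WT. Its mean over the 8 genotypes ranged by a factor of 1.27, against 7.09 for TSO2. In e2f against btl1 its log2 fold change was -0.01 with a 95% confidence interval of -0.21 to 0.18. Against WT it was 0.23 ± 0.09 and called (adjusted p 0.0367 in edgeR's test), with overlapping libraries, and 3 of the fits without 1 library and the fit of those genotypes alone (0.154) did not keep the call. RNR2A shares 153 of its 1690 exon bases with the antisense gene AT3G23570, which changed by 0.61 in e2f against WT (adjusted p 4.99e-05 in edgeR's test) and by 0.40 in bte1 btl1 against WT.

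**Figure D2:**
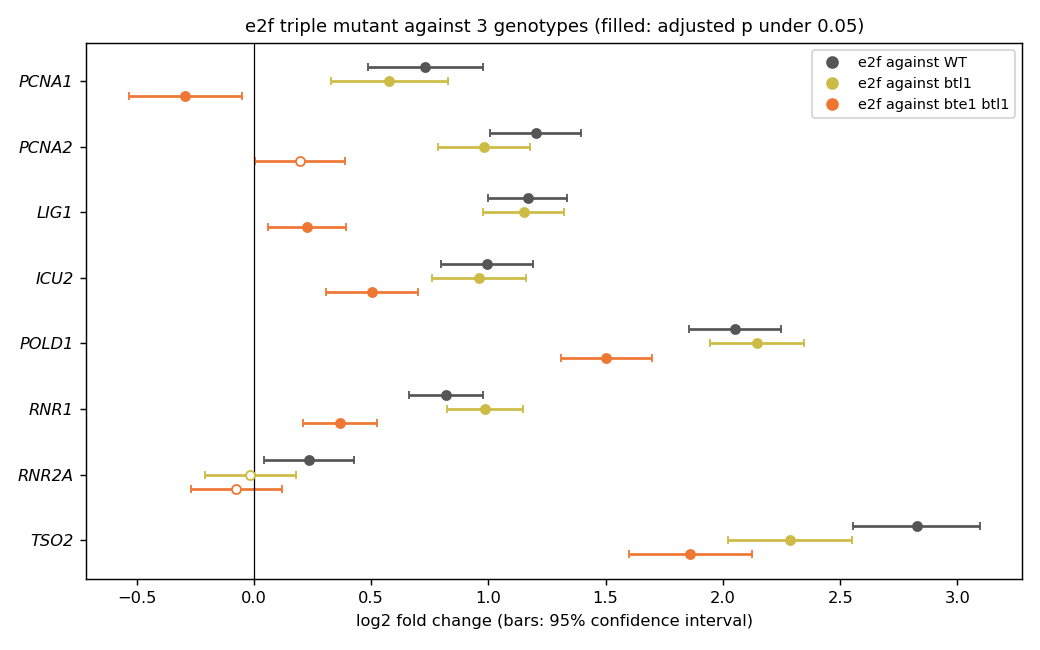
Log2 fold changes (horizontal axis, with 95% confidence intervals) of the 8 genes in e2f against WT, btl1 and bte1 btl1, filled where the adjusted p was under 0.05. TSO2 and POLD1 lie farthest right in all 3 comparisons, RNR2A is filled against WT alone, at 0.23, and PCNA1 is left of 0 against bte1 btl1.

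Ratios between paired genes also had their highest means in e2f. The ratio of TSO2 to RNR2A, in FPKM within each library, was 22.9 ± 1.04 in e2f, 5.95 ± 0.453 in bte1 btl1, 4.65 ± 0.293 in btl1 and 3.88 ± 0.367 in WT (SD, n = 3 each). The ratio of POLD1 to ICU2 was 2.26 ± 0.158 in e2f, 1.12 ± 0.0586 in bte1 btl1, 1.01 ± 0.0123 in btl1 and 1.097 ± 0.0863 in WT. The ratio of PCNA2 to PCNA1 was 1.45 ± 0.069 in e2f, 1.01 ± 0.0167 in bte1 btl1, 1.08 ± 0.0176 in btl1 and 1.05 ± 0.166 in WT. In each of these 3 ratios the e2f libraries lay above all libraries of WT, btl1 and bte1 btl1. The exact two-sided permutation test on log2 ratios gave 0.1 (adjusted 0.118 over 20 tests), the smallest p that 3 against 3 libraries can give. Separation and that p were not particular to e2f. They also held in bte1 btl1 against btl1, with log2 differences of -0.0937 for PCNA2 to PCNA1, 0.152 for POLD1 to ICU2 and 0.355 for TSO2 to RNR2A. In e2f against btl1 these differences were 0.429, 1.16 and 2.3. POLD1 to ICU2 separated in bte1 against WT too, at 0.263, where the other ratios overlapped.

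**Figure D3:**
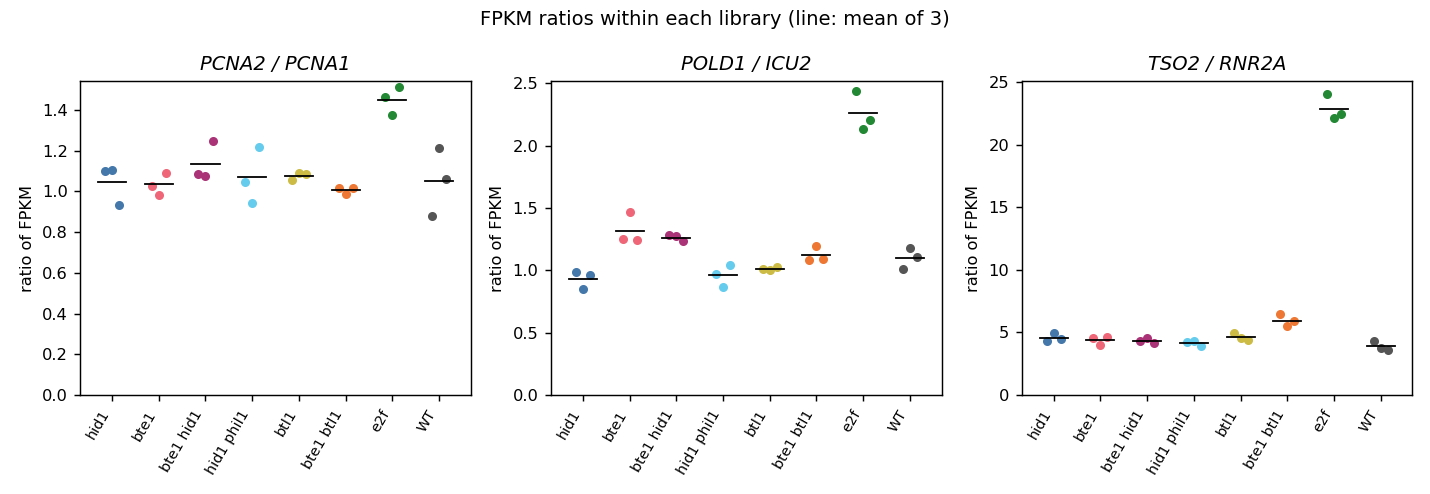
Ratios of FPKM between paired genes (vertical axes, from 0) in each library of the 8 genotypes, points for libraries and lines for the mean of 3. In e2f the ratios average 1.45 for PCNA2 to PCNA1, 2.26 for POLD1 to ICU2 and 22.9 for TSO2 to RNR2A, above every library of the other genotypes.

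Values of dividing-cell markers moved the same way, with all 6 called higher in e2f against btl1, and their part in these results was not tested. In e2f against btl1, all 5 green tissue markers were called lower, with sums of 16588 CPM in e2f, 26966 CPM in btl1 and 25673 CPM in WT. Of the 6 root markers, 5 were called lower and 1 higher in e2f against btl1, with sums of 2225 CPM in e2f, 3192 CPM in btl1 and 2385 CPM in WT. The part of either list in these results was not tested.

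The bte1 mutation was tested in 3 backgrounds that share no libraries with one another. LIG1 was higher with bte1 in all 3. It had 50.3, 52.3 and 55.4 CPM in bte1 against 35.2, 30.5 and 32.3 CPM in WT, and 53.6, 55.6 and 56.2 CPM in bte1 hid1 against 35.4, 34.3 and 35.6 CPM in hid1. The libraries did not overlap in either pair. The log2 fold change was 0.69 ± 0.08 in bte1 against WT (SE, adjusted p 3.95e-06), 0.65 ± 0.08 in bte1 hid1 against hid1 (adjusted p 7.2e-06) and 0.92 ± 0.08 in bte1 btl1 against btl1 (adjusted p 3.73e-08), all in edgeR's test. These 3 calls held in every fit without 1 library.

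In bte1 against WT, 3 of the 8 genes were called higher, where 1.89% of all tested genes were (2.52% in either direction). Besides LIG1 these were POLD1, at 25.1, 27.9 and 27.7 CPM in bte1 against 22.6, 20.3 and 18.9 CPM in WT, and PCNA2, at 19.0, 17.5 and 20.6 CPM in bte1 against 15.1, 14.4 and 15.1 CPM in WT. POLD1 changed by 0.38 ± 0.10 (SE, adjusted p 0.0256) and PCNA2 by 0.36 ± 0.10 (adjusted p 0.0449) in edgeR's test. POLD1 lost its call in 4 fits without 1 library (bte1 replicate 2 or 3, WT replicate 2 or 3), with adjusted p from 0.0862 to 0.18, and PCNA2 in 5 (bte1 replicate 1 or 3, any WT replicate), from 0.111 to 0.251, and also with RLE scaling (0.0505) and with no filter (0.0526). None of the 6 dividing-cell markers was called in bte1, where they summed to 129.4 CPM against 129.9 CPM in WT. The other 5 genes were not called, with log2 fold changes of 0.35 for PCNA1, 0.20 for TSO2, 0.11 for ICU2, 0.11 for RNR1 and 0.01 for RNR2A. Without WT replicate 1, PCNA1 was called (adjusted p 0.0402 in edgeR's test).

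In bte1 hid1 against hid1, 2 genes were called higher, LIG1 and POLD1, where 4.33% of tested genes were called higher and 7.43% in either direction. POLD1 had 26.5, 28.7 and 27.2 CPM in bte1 hid1 against 21.9, 19.1 and 20.9 CPM in hid1, a log2 fold change of 0.41 ± 0.10 (SE, adjusted p 0.00801 in edgeR's test), which became 0.0516 without hid1 replicate 2. RNR1 ran the other way, at 76.2, 81.7 and 80.4 CPM in bte1 hid1 against 93.8, 89.4 and 99.7 CPM in hid1, with a log2 fold change of -0.25 and an adjusted p of 0.0506. It was called with the replicate block (0.05 after rounding), with RLE scaling (0.0461), in the fit of those genotypes alone (0.0319) and in DESeq2 (0.0229). Of the 6 fits without 1 library, 0 called RNR1 (0.0564 to 0.214). TSO2 and RNR2A had log2 fold changes of -0.27 and -0.20 that were not called, though the fit of those genotypes alone called TSO2 (0.0351). PCNA2, PCNA1 and ICU2 had 0.21, 0.08 and -0.02. Of the dividing-cell markers, 4 of 6 were called lower in the same comparison, with sums of 136 CPM in bte1 hid1 against 187 CPM in hid1, and their part in these values was not tested. Against WT, bte1 hid1 showed the 3 calls of LIG1 (0.76), POLD1 (0.41) and PCNA2 (0.40), where 1.98% of tested genes were called higher (2.4% in either direction). Of the 6 fits without 1 library, LIG1 kept its call in 6, POLD1 in 3 (lost without bte1 hid1 replicate 2 or WT replicate 2 or 3, with adjusted p from 0.0597 to 0.11) and PCNA2 in 1 (kept without bte1 hid1 replicate 2, otherwise 0.0669 to 0.164). PCNA2 was also lost in the fit of those genotypes alone (0.0575). The other 5 genes had log2 fold changes from -0.04 to 0.26. In bte1 hid1 against bte1 none of the 8 was called, where 0.224% of tested genes were, and the values ran from -0.08 to 0.11 on the log2 scale. That count of 0 came from edgeR, with 0 also at an unadjusted p under 0.05 and 0 in DESeq2.

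Most of the genes were higher in bte1 btl1 than in btl1. In bte1 btl1 against btl1, 6 of 8 were called higher, where 3.37% of tested genes were (4.49% in either direction), and the median log2 fold change of the 8 genes was 0.63, against -0.0025 over all genes tested. LIG1 (0.92), PCNA1 (0.87), PCNA2 (0.78), POLD1 (0.64), RNR1 (0.62) and ICU2 (0.46) were called, with adjusted p of 3.73e-08 to 0.00503 in edgeR's test. PCNA1 had 28.5, 24.3 and 26.7 CPM in bte1 btl1 against 15.4, 12.8 and 15.2 CPM in btl1. RNR1 had 108, 97.4 and 103 CPM in bte1 btl1 against 75.7, 61.2 and 63.8 CPM in btl1. In neither gene did the libraries overlap. All 6 calls held in every fit without 1 library. Over the 8 genes, the libraries of bte1 btl1 and btl1 did not overlap for 7, nor for 23.9% of all tested genes. TSO2 had a log2 fold change of 0.42 ± 0.12 (SE) and an adjusted p of 0.0535 in edgeR's test. It was called with the replicate block (0.0171), in DESeq2 (0.028) and in the fit of those genotypes alone (0.0411). Of the 6 fits without 1 library, 2 called TSO2. RNR2A had 0.06 with a 95% confidence interval of -0.14 to 0.26. In bte1 btl1 the dividing-cell markers summed to 170 CPM against 129.6 CPM in btl1, with 2 of 6 called higher, and their part in this result was not tested.

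The test of whether the change with bte1 differed between backgrounds called none of the 8 genes in edgeR. It called 0.0685% of tested genes for the WT and btl1 backgrounds. There RNR1 had a difference of 0.51 ± 0.11 on the log2 scale (SE, adjusted p 0.106 in edgeR's test, and 0.0104 in DESeq2), and PCNA1 one of 0.52 ± 0.17 (adjusted p 0.451), with 4 of the 8 at an unadjusted p under 0.05 and 1 called in DESeq2. The differences of the 8 genes ran from 0.05 for RNR2A to 0.52 for PCNA1. For the WT and hid1 backgrounds the test called 0.343% of tested genes, and RNR1 had a difference of -0.36 ± 0.11 (adjusted p 0.166), with 2 of the 8 at an unadjusted p under 0.05 and 0 called in DESeq2. In that test the differences of the 8 genes ran from -0.47 for TSO2 to 0.03 for POLD1.

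**Figure D4:**
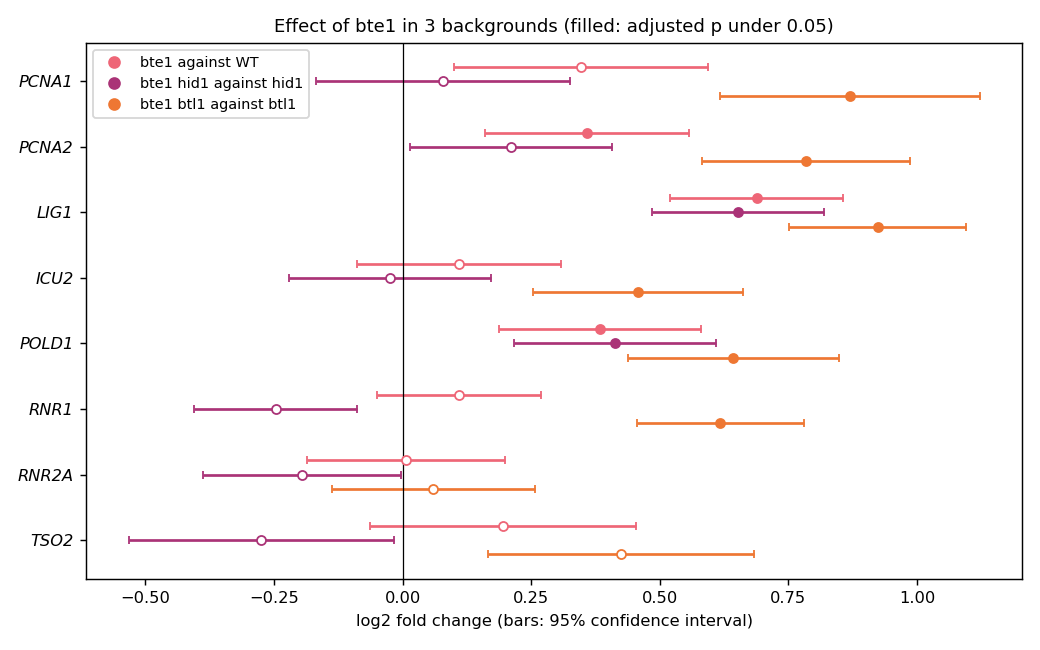
Log2 fold changes with bte1 (horizontal axis, with 95% confidence intervals) of the 8 genes in the WT, hid1 and btl1 backgrounds, filled where the adjusted p was under 0.05. LIG1 and POLD1 are filled in all 3 backgrounds, at 0.65 to 0.92 and 0.38 to 0.64, and PCNA1, ICU2 and RNR1 are filled in the btl1 background.

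Against WT, bte1 btl1 showed all 8 genes called higher, where 14.8% of tested genes were (28.1% in either direction), with a median log2 fold change of 0.75 and values from 0.31 for RNR2A to 1.02 for PCNA1. The RNR2A call was lost without WT replicate 2 or 3 or bte1 btl1 replicate 1 (adjusted p 0.0616 to 0.0891). This comparison crosses the library sets. In btl1 against WT, which crosses them too, TSO2 was called, at 110.0, 85.4 and 91.1 CPM in btl1 against 79.3, 59.3 and 58.5 CPM in WT, a log2 fold change of 0.54 (adjusted p 0.00449 in edgeR's test), where 8.66% of tested genes were called higher and 17.3% in either direction. The other 7 genes were not called there, and their log2 fold changes ran from -0.17 to 0.25. Some fits without 1 library called PCNA2 higher (adjusted p 0.0473 in edgeR's test, without btl1 replicate 2). Others called RNR2A higher (0.0447 without WT replicate 1, 0.0493 without btl1 replicate 2) or RNR1 lower (0.0323 without btl1 replicate 1).

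In hid1 against WT, 1 of the 8 genes was called higher, where 1.73% of tested genes were (3.44% in either direction). That gene was RNR1, at 93.8, 89.4 and 99.7 CPM in hid1 against 78.0, 74.5 and 72.5 CPM in WT. Its libraries did not overlap, and its log2 fold change was 0.33 ± 0.08 (SE, adjusted p 0.0163 in edgeR's test). The call was lost without hid1 replicate 3 (adjusted p 0.102), WT replicate 2 (0.065) or WT replicate 3 (0.0747). TSO2 had 88.9, 90.3 and 81.4 CPM in hid1 against 79.3, 59.3 and 58.5 CPM in WT. Its log2 fold change was 0.40, with an adjusted p of 0.078 in edgeR's test. TSO2 was called with the replicate block (0.0268), in DESeq2 (0.0447) and without WT replicate 1 (0.014). The fit of those genotypes alone did not call it (0.103). The other 6 genes had log2 fold changes from 0.00 for POLD1 to 0.24 for ICU2. Without WT replicate 1, ICU2 was called too (adjusted p 0.0266 in edgeR's test). Of the dividing-cell markers, 4 of 6 were called higher in hid1, and their part in this result was not tested.

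In hid1 phil1 the value of RNR1 was lower than in hid1. It had 77.8, 69.5 and 65.7 CPM in hid1 phil1 against 93.8, 89.4 and 99.7 CPM in hid1, a log2 fold change of -0.41 ± 0.08 (SE, adjusted p 0.00226 in edgeR's test). This was the 1 call among the 8 genes, where 2.92% of tested genes were called lower and 6.45% in either direction. All 8 genes had a negative log2 fold change, of -0.02 to -0.41, in this comparison, which shares the hid1 libraries with hid1 against WT. Of the dividing-cell markers, 4 of 6 were called lower in hid1 phil1, with sums of 138 CPM in hid1 phil1 against 187 CPM in hid1, and their part in these values was not tested. Against WT, hid1 phil1 called none of the 8, where 0.114% of tested genes were called, with log2 fold changes from -0.11 to 0.10. There 0 of the 8 had an unadjusted p under 0.05 in edgeR, and DESeq2 called 0.

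The other 43 fork and nucleotide genes, a list of polymerase, clamp loader, single-strand binding, helicase, topoisomerase, chromatin assembly and nucleotide synthesis genes, all passed the filter. In e2f against btl1, 32 of the 43 were called higher and 0 lower, where 26.4% of tested genes were called higher, with a median log2 fold change of 0.70 against -0.01 over all genes. RPA1E, a large subunit of the single-strand binding protein RPA, changed by 3.27 ± 0.15 (SE), FAS1, the largest subunit of the chromatin assembly factor, by 2.38 ± 0.13, CTF18, of an alternative clamp loader, by 1.72 ± 0.11, and DNA2, a nuclease-helicase, by 1.65 ± 0.11. Against WT, 31 were called higher (26.4% of tested genes) and 1, RPA1A, lower, with RPA1E at 3.58, FAS1 at 2.17, PSF1, a helicase subunit, at 1.85 and CTF18 at 1.83. Against bte1 btl1, 25 were called higher (26.1% of tested genes), with RPA1E at 2.94, FAS1 at 1.90, DNA2 at 1.86 and CTF18 at 1.27, and 3 lower, RPA1A, RPA2A and RPA3B, which were chosen here after their values were seen.

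In bte1 btl1 against btl1, 15 of the 43 were called higher and 0 lower, where 3.37% of tested genes were called higher, with a median of 0.36. POLD3, an accessory subunit of polymerase delta, changed by 1.09 ± 0.12 (SE), RPA3A, a small RPA subunit, by 1.14 ± 0.13, POLA2, the accessory subunit of polymerase alpha, by 0.83 ± 0.12, and DUT1, which removes dUTP, by 0.69 ± 0.12. In bte1 against WT, 1 of the 43 was called, near the share of all tested genes (2.52%), and it was POLD3 at 0.77 ± 0.12 (adjusted p 0.000236 in edgeR's test). POLD3 was also the call in bte1 hid1 against WT, at 0.75, and was higher in bte1 hid1 against hid1, at 0.84.

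In hid1 against WT, 6 of the 43 were called higher and 0 lower, where 1.73% of tested genes were called higher, among them RPA1E at 1.01 ± 0.15 (SE), RPA1D at 0.50 ± 0.10, TOP2 (topoisomerase II) at 0.43 ± 0.09 and RPA3A at 0.57 ± 0.13. In hid1 phil1 against hid1, 9 were called lower and 0 higher, where 2.92% of tested genes were called lower, led by RPA1E at -1.04 ± 0.15, RPA1B at -0.78 ± 0.14, RPA1D at -0.48 ± 0.10 and CTF18 at -0.51 ± 0.11. In bte1 hid1 against hid1, 3 were called higher and 3 lower, where 7.43% of tested genes were called in either direction, the lower being RPA1E at -1.03, RPA1D at -0.47 and TOP2 at -0.40. In btl1 against WT, across library sets, 5 were called higher and 2 lower, a share near the 17.3% of all tested genes called, with DNA2 at -1.02, RPA2B at -0.58, FEN1 (a flap endonuclease) at 0.45 and TK1A (a thymidine kinase) at 0.56. In bte1 btl1 against WT, across library sets too, 25 were called higher, where 14.8% of tested genes were, and 1, DNA2 at -1.24, lower, with POLD3 at 1.21, RPA3A at 1.16 and TK1A at 1.20. In hid1 phil1 against WT, 0 of the 43 were called in edgeR or DESeq2, with 2 at an unadjusted p under 0.05. In bte1 hid1 against bte1, 0 were called by either tool, with 1 at an unadjusted p under 0.05.

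**Figure D5:**
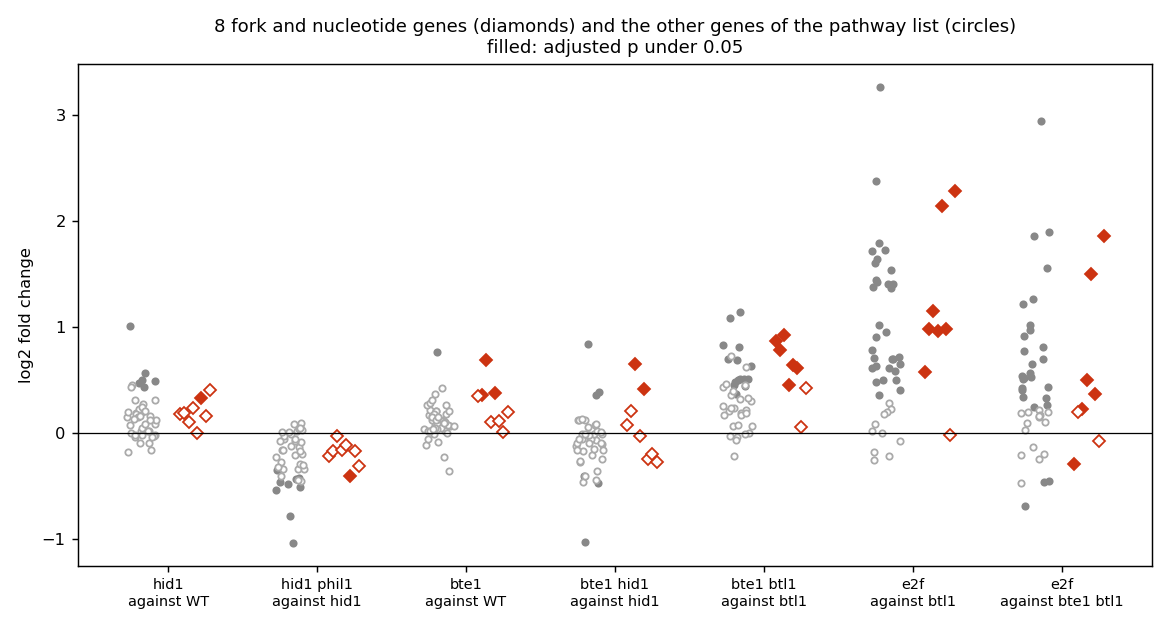
Log2 fold changes (vertical axis) of the 8 genes (diamonds) and of the other 43 fork and nucleotide genes (circles) in 7 comparisons, filled where the adjusted p was under 0.05. In e2f against btl1, 7 of the 8 diamonds and 32 of the 43 circles are filled above 0, and in hid1 phil1 against hid1, 1 and 9 are filled below 0.

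Over the 24 libraries, each gene's log2 CPM was centred within its set of libraries and compared with the mean of the 8. Among genes with a symbol in the reference, Pearson's r was highest for EMB1968 (a clamp loader subunit, 0.94). MCM3 (a replicative helicase subunit, 0.94), RECQ4A (0.939), ANTR2 (0.936), ORC1A (an origin recognition subunit, 0.934) and POLA2 (0.923) followed. Loci with no symbol there ranked between these genes, namely AT3G52630 (0.939), AT5G43530 (0.933), AT3G42660 (0.931) and AT5G52950 (0.923). EMB1968 (as RFC4), POLA2, AT3G52630 (as RPA3A) and AT3G42660 (as EOL1) belong to the list of other fork and nucleotide genes above. These libraries fall into genotypes, so r is a description and carries no p. Among the 8, the r with that mean was highest for RNR1 (0.943), PCNA2 (0.929) and ICU2 (0.928) and lowest for RNR2A (0.238). Each of the 8 is itself part of that mean. The r of RNR2A depended on the e2f libraries. With TSO2 it was 0.119 over all libraries and 0.755 over the 21 without e2f, and with RNR1 0.222 and 0.534. With LIG1 it was -0.03 and 0.02.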

How the data were processed

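Whole-seedling poly(A) RNA was measured in 24 libraries. The deposited count table holds the authors' raw counts per gene, and the deposited FPKM table, per the file headers, holds the authors' values scaled by length and library; reads had been trimmed with fastp and aligned to TAIR10 with HISAT2 2.1.0 and SAMtools 1.6, per the submitters' processing notes. The counter and strand are not given in the sources used here. Counts were fitted in edgeR 4.0.16 (R 4.3.3): TMM scaling, filterByExpr (21897 genes of 33612 features), 1 quasi-likelihood fit on all 24 libraries, Benjamini-Hochberg adjustment over all genes in each comparison, called under 0.05. The fit was tested on simulated data. P-values measure the spread between replicates that the labels call biological. Alternatives were DESeq2 1.42.0, RLE scaling, no filter, fits on the genotypes compared alone, a replicate block and leaving out 1 library. Same-numbered replicates deviated together in 1 of 13 comparisons (every r over 0.1 in bte1 hid1 against bte1), where the block changed no call among the 8 genes. Members, lists and the E2F core were chosen with earlier results of these data known. All 8 genes are given in every comparison, by value or by range, and from the list up to 4 called genes of smallest adjusted p; others were chosen after their values were seen. Coordinates and sequences are TAIR10.1. FPKM were set side by side across library sets only as ratios within a library.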

Additional observations from a re-analysis of the deposited data

Results flagged for a closer look

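RPA1E, a large subunit of the single-strand binding protein RPA, changed with bte1 by -1.03 in the hid1 background (bte1 hid1 against hid1) and by 0.04 in the WT background (bte1 against WT). It was singled out because the 2 changes differed in the test of the difference itself, by -1.06 ± 0.22 on the log2 scale (SE, adjusted p 0.029 in edgeR's quasi-likelihood test with Benjamini-Hochberg adjustment). Of the 6 dividing-cell markers, 1 (HIK, at -0.59 with an adjusted p of 0.0229) was called lower in the same test, and its part in this result was not tested.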

How the results depend on the processing

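Of the 46 calls of the 8 genes, 45 held in DESeq2, 45 with RLE scaling, 44 with no filter, 43 in fits of the genotypes compared alone and all 46 with the replicate block; no direction reversed. The number of the 8 genes called moved most, in proportion to the main count, as follows, and the cause was not tested. In hid1 against WT, 1 was called; the replicate block gave 2, DESeq2 gave 2 and the fits without 1 library 0 to 3. In bte1 hid1 against hid1, 2 were called; RLE scaling, the replicate block and DESeq2 gave 3 each, the fit of those genotypes alone 4, and leaving out 1 library 1 to 2. In btl1 against WT, 1 was called, and 1 to 3 without 1 library. In bte1 against WT, 3 were called, 2 with RLE scaling or no filter, and 1 to 3 without 1 library. In bte1 hid1 against WT, 3 were called, 2 in the fit of those genotypes alone, and 1 to 2 without 1 library. In the test of bte1 with hid1, 0 were called, and 1 in the fit of those genotypes alone. In the test of bte1 with btl1, 0 were called, 1 in DESeq2 and 0 to 1 without 1 library. Smaller moves occurred elsewhere. In e2f against bte1 btl1, 6 were called and DESeq2 gave 5. There LIG1 (adjusted p 0.0505) and PCNA1 (0.118) both lost edgeR's call without e2f replicate 1. In bte1 btl1 against btl1, 6 were called and DESeq2 gave 7. In bte1 btl1 against WT and in e2f against WT, 8 were called, and 7 to 8 without 1 library. The replicate block gave 50 calls in 120 tests, against 46. Depth (14309396 reads at the lowest) left all 8 genes above the filter.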
